A study of Drosophila melanogaster with 10 samples.

Results

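The Toll and Imd pathways are the NF-kappaB signalling routes of flies. In the Toll route the cleaved ligand Spätzle binds the receptor Toll, the IkappaB protein Cactus is destroyed, and the transcription factors Dorsal and Dif enter the nucleus; the same route patterns the dorsoventral axis of the embryo. In the Imd route peptidoglycan receptors of the PGRP family engage the adaptor Imd, which leads through an IkappaB kinase complex to the cleavage of the transcription factor Relish. Both routes are known for the induction of antimicrobial peptide genes, chiefly in fat body and blood cells.

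The genes described here are 10 core members of these routes, taken by symbol from a table of 7624 genes, and all 10 were found. They are the Toll route genes spz, Tl, cact, dl and Dif and the Imd route genes PGRP-LC, PGRP-LE, imd, key and Rel. They were measured in ML-DmBG3-c2 (BG3) cells, a Drosophila line that came from the larval central nervous system. The 10 libraries hold nascent RNA from chromatin, of which 3 are mock-treated, 3 carry the label Ph RNAi and 4 the label Sce RNAi. Ph and Sce belong to Polycomb repressive complex 1 (PRC1), a chromatin complex known for silencing developmental genes. The protocol given for all samples has cells grown with insulin and held in low-serum medium while double-stranded RNA is added, and does not describe the mock treatment further. All groups are the same cultured line, with no difference in genotype named. The values are the authors' mean nascent signal of each group and the ratio, p and q of each gene against mock from the authors' deposited table. Ratios, p and q of total RNA from the same table concern Ph, Sce and Pc RNAi, and their libraries lie outside the 10. Values per library and depth are unknown, so no SD can be put beside a mean, and the labels do not tell whether replicates came from separate cultures, so the p-values measure only the spread between these libraries, which may be technical. The words rose and fell are kept for an authors' q under 0.05.

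The targeted genes were higher, not lower, under their own labels. The authors' mean nascent signal of ph-p was 90923 in the libraries labelled Ph RNAi against 18685 in mock, and that of Sce was 293193 in the libraries labelled Sce RNAi against 2475. The nascent ratios had q of 0.012 for ph-p and 0.377 for Sce per the authors' deposited table, and ph-d had 5.39 (q 0.053). In total RNA the authors' ratios under the own label were 8.64 for ph-p (q 0.017) and 8.09 for ph-d (q 0.028). Those of Sce and Pc were 27.0 (q 0.198) and 21.5 (q 0.13). Every direction below, in nascent and in total RNA, therefore rests on the labels. The neuronal gene elav had an authors' mean of 9594 in mock, and the glial gene repo had 2890. Of the neuronal marker list 6 of 14 symbols were found, all above 581 units in each group, and of the glial list 8 of 10. Of 11 fat body marker symbols 0 were found, and the others are not analysed here.

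**Figure D1:**
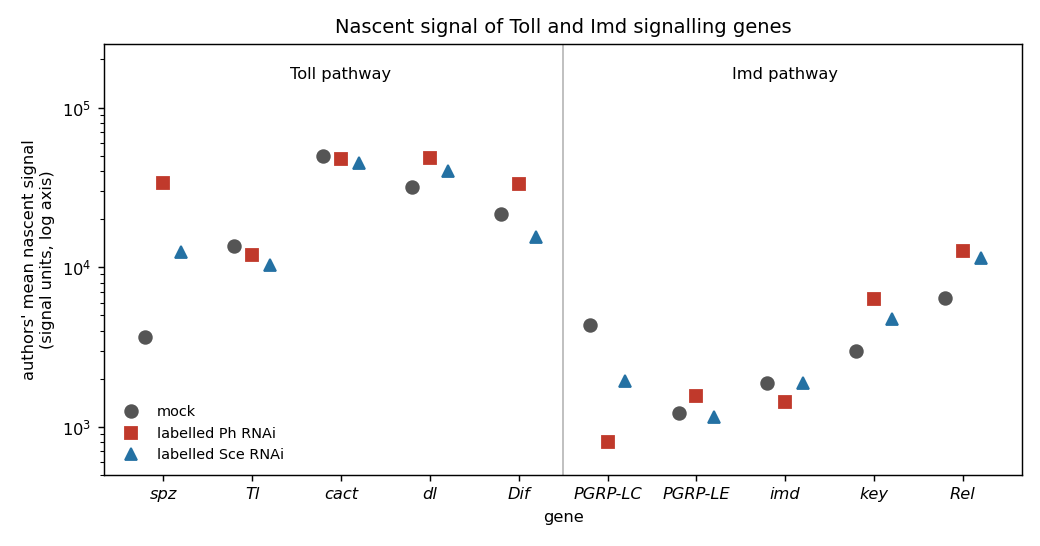
Authors' mean nascent signal (log axis, signal units) of the 10 genes in mock libraries (circles), libraries labelled Ph RNAi (squares) and libraries labelled Sce RNAi (triangles); each point is a group mean with no error available. The spz points run from 3634 in mock to 33736 in Ph RNAi, while the PGRP-LC points run the other way, from 4336 to 808.

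The ligand gene spz had the widest fold range of the 10. Its authors' mean nascent signal was 3634 in mock, 33736 in the libraries labelled Ph RNAi and 12386 in those labelled Sce RNAi. The order was thus mock, Sce RNAi, Ph RNAi, with 9.28 times mock at the top and 3.41 times mock in between. In the authors' deposited table these ratios had p of 0.02 and 0.041 but q of 0.132 and 0.384, so spz passed in neither nascent comparison. On the log2 scale with a pseudocount of 581 units, spz stood at 3.03 and 1.62, above 99.2% and 99.6% of all genes in the 2 comparisons, which share the mock libraries. The authors' deposited table gave spz ratios in total RNA of 3.50 after Ph RNAi (q 0.134), 3.07 after Sce RNAi (q 0.251) and 2.85 after Pc RNAi (q 0.02). All 5 ratios were above 1, and the rise in total RNA after Pc RNAi is the one that passed.

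The receptor gene Tl had an authors' mean nascent signal of 13572 in mock, 11888 in the libraries labelled Ph RNAi and 10250 in those labelled Sce RNAi. Both RNAi means were below mock, at 0.876 and 0.755 times its level, with q of 0.342 and 0.498 per the authors' deposited table. For total RNA, ratios of Tl per the authors' deposited table lay on the other side of 1. Tl rose there 2.26-fold after Ph RNAi (p 0.002, q 0.039), and its ratio was 1.73 after Sce RNAi (q 0.271) and 2.05 after Pc RNAi (q 0.234). The difference between nascent and total RNA was not tested, since values per library are unknown for both kinds of RNA. Adjusting the deposited p of Tl by the Benjamini-Hochberg method over all genes gave 0.058, which does not pass.

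The inhibitor gene cact encodes the fly IkappaB. Its authors' means were 49878 in mock, 47415 in Ph RNAi and 44757 in Sce RNAi libraries. They lay within 1.11-fold of each other, with q of 0.555 and 0.593 per the authors' deposited table. Total RNA ratios of cact in that deposited table by the authors were 1.12 after Ph RNAi, 1.22 after Sce RNAi and 1.31 after Pc RNAi, with q from 0.239 to 0.349.

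The transcription factor genes dl and Dif lie in tandem on chromosome arm 2L, on the same strand and 3668 bp apart in the BDGP6 annotation. Their ratios to mock were not tested against each other. For dl the authors' mean nascent signal was 31695 in mock, 48355 in Ph RNAi and 40058 in Sce RNAi libraries, or 1.53 and 1.26 times mock. In the authors' deposited table the Ph RNAi ratio of dl had a p of 0.012 and a q of 0.105. For its Sce RNAi ratio the p was 0.367 and the q 0.647. For Dif the authors' means were 21379, 33119 and 15545 in the same order. Both genes were thus above mock under the Ph RNAi label, while under the Sce RNAi label dl was above mock and Dif below it, at 0.727 times. Dif was 2.13 times as high in the libraries labelled Ph RNAi as in those labelled Sce RNAi, a difference for which the table holds no test. Neither ratio of Dif to mock passed, with q of 0.302 and 0.588 per the authors' deposited table. For total RNA the authors' deposited table gave Dif ratios of 0.937, 0.652 and 0.617 after Ph, Sce and Pc RNAi, and dl ratios of 1.39, 1.27 and 1.08, none with q under 0.3.

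**Figure D2:**
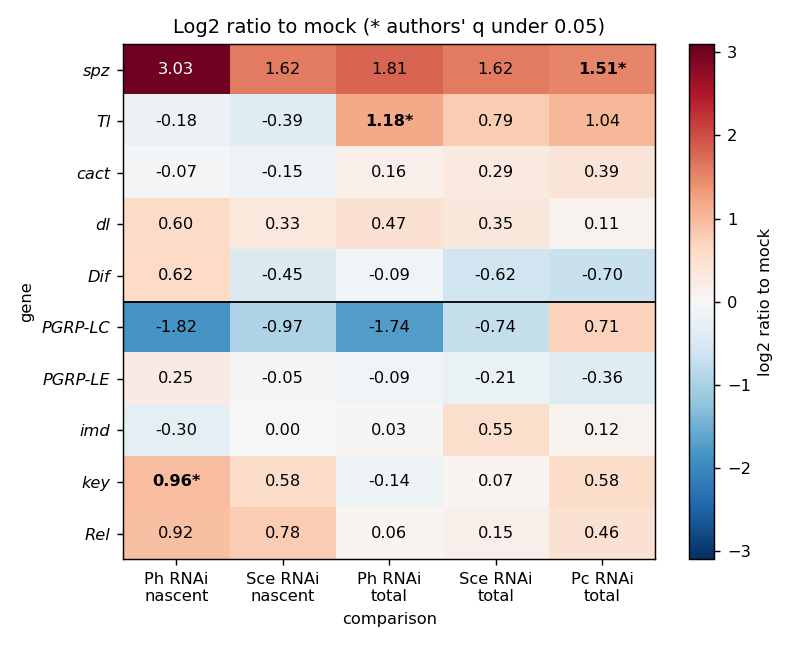
Log2 ratio to mock of each gene (rows) in the 5 comparisons of the table (columns), nascent values with a pseudocount of 581 units and total RNA values as the log2 of the authors' ratio; asterisks mark an authors' q under 0.05. The 3 marked cells are key after Ph RNAi in nascent RNA at 0.96, Tl after Ph RNAi in total RNA at 1.18 and spz after Pc RNAi in total RNA at 1.51.

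PGRP-LC encodes the membrane receptor for bacterial peptidoglycan at the head of the Imd route. Its authors' mean was 4336 in mock, 808 in the libraries labelled Ph RNAi and 1936 in those labelled Sce RNAi, 5.37-fold and 2.24-fold below mock. The order was the reverse of that of spz, with mock highest and Ph RNAi lowest. In the authors' deposited table the p-values were 0.24 and 0.334 and the q-values 0.379 and 0.634, so this gene had the lowest nascent ratio of the 10 in both comparisons without passing in either. On the log2 scale PGRP-LC stood at -1.82 after Ph RNAi, with 0.302% of all genes below it, and at -0.97 after Sce RNAi. In total RNA the authors' deposited table gave ratios of 0.299 after Ph RNAi and 0.597 after Sce RNAi, but 1.64 after Pc RNAi, with q of 0.275, 0.442 and 0.488.

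PGRP-LC lies in a cluster on arm 3L with its paralogs PGRP-LA, 473 bp away on one side, and PGRP-LF, a negative regulator of the route, 1272 bp away on the other, all on one strand. PGRP-LA had an authors' mean of 805 in mock and 464 in Ph RNAi libraries, and PGRP-LF had 1004 and 345. In the authors' deposited table the nascent ratios after Ph RNAi were 0.576 for PGRP-LA (q 0.505) and 0.344 for PGRP-LF (q 0.293). All 3 genes of the cluster were below mock there, with none passing. The Ph RNAi means of PGRP-LA and PGRP-LF lay under 581 units, so their ratios rest on little signal. After Pc RNAi in total RNA the authors' deposited table placed all 3 above 1, with 2.30 for PGRP-LA, 1.64 for PGRP-LC and 1.42 for PGRP-LF, again with none passing. Whether these paralogs have stretches alike enough to share reads was not examined, and the sources used here do not say how the authors treated such reads.

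PGRP-LE encodes a peptidoglycan receptor that acts inside and outside the cell. Its authors' mean nascent signals were 1211 in mock, 1549 in Ph RNAi and 1148 in Sce RNAi libraries. The groups lay within 1.35-fold of each other, with p of 0.617 and 0.89 per the authors' deposited table. Its total RNA ratios per the authors' deposited table were 0.938, 0.865 and 0.777 after Ph, Sce and Pc RNAi, with q from 0.492 to 0.526.

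The adaptor gene imd had authors' mean nascent signals of 1877 in mock, 1420 in Ph RNAi and 1877 in Sce RNAi libraries. The mock and Sce RNAi means were equal to the unit, and the Ph RNAi mean was 1.32-fold lower with a p of 0.567 and a q of 0.534 per the authors' deposited table. Of the span of imd 41.4% is shared with Dp1 on the opposite strand, where 664 exonic bases of Dp1 fall. Dp1 had a mock mean of 63259, and since strand handling is not stated, the origin of the imd signal is uncertain. In total RNA the authors' deposited table gave imd ratios of 1.02, 1.46 and 1.09 after Ph, Sce and Pc RNAi, with q of 0.575, 0.336 and 0.563.

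The kinase complex gene key, which encodes the regulatory IKKgamma subunit of the IkappaB kinase that activates Relish, is the one of the 10 that rose in nascent RNA. Its authors' mean was 2963 in mock, 6327 in the libraries labelled Ph RNAi and 4717 in those labelled Sce RNAi. The order was mock, Sce RNAi, Ph RNAi, as for spz. The Ph RNAi ratio of 2.13 had a p listed at 0, meaning under 0.0005, and a q of 0.025 per the authors' deposited table. The Sce RNAi ratio of key was 1.59 with a p of 0.159 and a q of 0.551 per the same deposited table of the authors. In total RNA the authors' deposited table gave key ratios of 0.908 after Ph RNAi (q 0.486), 1.05 after Sce RNAi (q 0.572) and 1.49 after Pc RNAi (q 0.288). The rise in nascent RNA thus stood beside a total RNA ratio below 1 for the same treatment, and that difference was not tested.

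The transcription factor gene Rel, which encodes Relish, had nascent ratios to mock of a size like those of key. Its authors' mean was 6377 in mock, 12627 in Ph RNAi and 11376 in Sce RNAi libraries, 1.98 and 1.78 times mock. In the authors' deposited table each ratio had a p of 0.024, with q of 0.145 and 0.352, so neither passed. Total RNA ratios of Rel per the authors' deposited table were 1.04 and 1.11 after Ph and Sce RNAi and 1.38 after Pc RNAi, with q of 0.538, 0.484 and 0.254. For key and Rel alike, both nascent ratios were above 1.5 and the total RNA ratios after the same treatments lay between 0.908 and 1.11. Rel lies inside another gene of the same strand, Nmdmc, whose values are given below. How much of the Rel signal is its own was not tested.

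Genes were ranked by likeness to key, as the Euclidean distance of the log2 ratios over the 5 comparisons. Among 6942 genes with a mean over the groups above 581 units, the nearest were CG3703 at 0.22, Rel at 0.32 and vap at 0.33. The mock mean of CG3703 was 454, under 581 units, so the pseudocount shrank its nascent log2 ratios more than those of key. Its distance without a pseudocount was not computed. The nascent ratios after Ph RNAi per the authors' deposited table were 2.96 for CG3703, 1.98 for Rel and 1.83 for vap, with q of 0.183, 0.145 and 0.151. The comparisons share mock libraries within each kind of RNA, so these distances describe the table and carry no test.

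In nascent RNA 1 of the 10 genes passed after Ph RNAi, where 2.48% of all genes per the authors' deposited table did. After Sce RNAi 0 of the 10 passed, where 0.118% of all genes did per the authors' deposited table. At an unadjusted p under 0.05 the count was 4 of 10 after Ph RNAi (spz, dl, key and Rel). After Sce RNAi it was 2 of 10 (spz and Rel). All of them were above mock, and the shares of all genes were 16.5% and 9.9% per the authors' deposited table. The signal counted for Rel may hold signal of Nmdmc, which was not tested. In total RNA the authors' q was under 0.05 for 1 of 10 after Ph RNAi (Tl), 0 of 10 after Sce RNAi and 1 of 10 after Pc RNAi (spz), beside 3.88%, 0.249% and 3.19% of all genes. Unadjusted p under 0.05 in total RNA held for 2 of 10 after Ph RNAi (spz and Tl), 1 after Sce RNAi (spz) and 1 after Pc RNAi (spz) per the authors' deposited table, beside 18.6%, 11.6% and 14.4% of all genes. No gene of the 10 passed in more than 1 of the 5 comparisons. The share of all genes that did so was not computed, so this marks nothing particular to the 10. Passing in 1 comparison and not in another does not show that the ratios differed.

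Over the 10 genes the median nascent log2 ratio was 0.42 under the Ph RNAi label, beside 0.02 over all genes, and -0.03 under the Sce RNAi label, beside 0.01. After Ph RNAi 6 of 10 deposited ratios by the authors were above 1, where 52.4% of all genes were. By size, 5 of 10 exceeded mock by more than 1.5-fold after Ph RNAi and 1 lay below it by as much, where 16.4% and 13.2% of all genes did. After Sce RNAi these counts were 3 and 1, where 12.1% and 9.69% of all genes did. The members were chosen with earlier results of these data known, so the medians and counts describe them and support nothing further. The total RNA medians were 0.04, 0.22 and 0.43 after Ph, Sce and Pc RNAi, beside 0.07, 0.06 and 0.05 over all genes, so that of Ph RNAi lay under that of all genes.

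**Figure D3:**
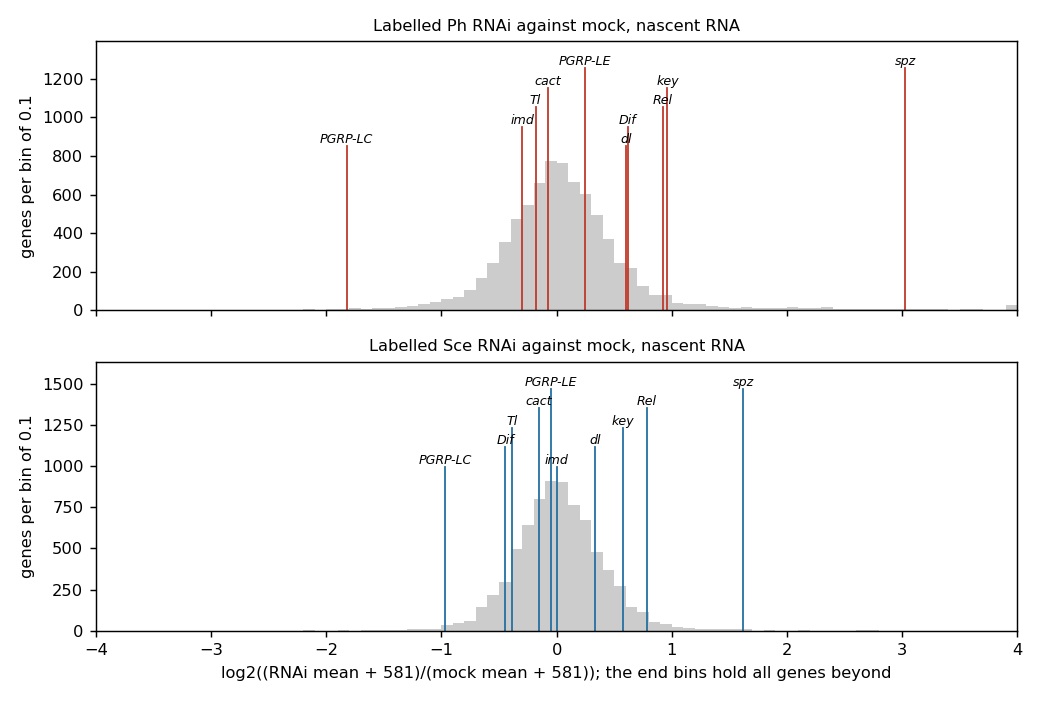
Number of genes per bin of 0.1 in log2 ratio (grey bars, all 7624 genes) for nascent RNA in the libraries labelled Ph RNAi (top) and Sce RNAi (bottom) against mock, with a line at each of the 10 genes; line heights only separate the names. After Ph RNAi spz lies at 3.03 and PGRP-LC at -1.82, and the other 8 lie between -0.30 and 0.96.

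The genes next to the 10 on the chromosome, and those that overlap them, were followed in the same table. All positions are from the BDGP6 annotation, and the sources used here do not name the authors' build. Rel spans 3R:9044183-9047977 on the minus strand and lies wholly inside Nmdmc, a folate metabolism gene of the same strand, with 0 exonic bases of Nmdmc within it, so that the whole of Rel falls in an intron of Nmdmc. The authors' mean nascent signal of Nmdmc was 11095 in mock, 21790 in Ph RNAi and 19645 in Sce RNAi libraries. Its ratios of 1.96 and 1.77 per the authors' deposited table stood beside 1.98 and 1.78 for Rel, and Nmdmc rose after Ph RNAi with a q listed at 0. Both genes lie on 1 strand, so counting by strand alone cannot separate them, and how much of either signal belongs to the other gene was not tested. The total RNA ratios of Nmdmc per the authors' deposited table were 1.05, 1.55 and 0.948 after Ph, Sce and Pc RNAi, where Rel had 1.04, 1.11 and 1.38. The pair thus had like ratios in nascent RNA and in total RNA after Ph RNAi, and unlike ones in total RNA after Sce and Pc RNAi.

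The gene key spans 2R:24785514-24787411 on the minus strand, is 1.9 kb long and 25.1% intronic. Reg-5 lies on the same strand 596 bp from it, on the side where key begins. Its authors' mean was 4438 in mock, 16628 in Ph RNAi and 2922 in Sce RNAi libraries, and it rose 3.75-fold after Ph RNAi with a q of 0.017 per the authors' deposited table. After Sce RNAi the ratio of Reg-5 was 0.659 per the authors' deposited table, below mock, where key had 1.59. The neighbour on the other side of key, CG16912, had ratios of 0.81 and 0.96 per the authors' deposited table. CG3589, which shares 29 bp with key from the opposite strand, had a ratio of 1.34 after Ph RNAi with a q of 0.308 per the authors' deposited table.

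The neighbours of spz gave smaller nascent ratios than spz itself. The gene spans 3R:27064990-27070070 on the minus strand. Nep5, 790 bp away on the same strand, had an authors' mean of 1296 in mock, 2389 in Ph RNAi and 2040 in Sce RNAi libraries, 1.84 and 1.57 times mock with q of 0.428 and 0.423 per the authors' deposited table. On the other side the nearest gene of the table, eater, a blood cell receptor gene 25796 bp away, had means of 227, 301 and 305, all under 581 units. In total RNA the authors' deposited table gave Nep5 ratios of 3.62, 4.2 and 1.99 after Ph, Sce and Pc RNAi (q 0.162, 0.264 and 0.336), so that Nep5 was above spz there after Ph and Sce RNAi and below it after Pc RNAi. CG43935, which lies within spz on the opposite strand over 7.32% of its length, is not analysed here.

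The other loci held no neighbour that passed in nascent RNA. PGRP-LC spans 3L:9338810-9348336 on the plus strand and overlaps no other annotated gene, and PGRP-LE spans X:15801153-15803880 on the minus strand, also without overlap. Tl spans 3R:26799041-26842403 on the plus strand, is 43.4 kb long and 88% intronic, and ends 58 bp from Lerp on the opposite strand, which had ratios of 0.737 and 0.871 per the authors' deposited table. The gene cact spans 2L:16313036-16326207 on the minus strand, and fzy, a mitosis gene that shares 62 bp with it from the opposite strand, had ratios of 0.566 and 0.74 per the authors' deposited table. Dif spans 2L:17413248-17433161 and dl 2L:17436830-17450364, both on the minus strand, and imd spans 2R:18409796-18413599 on the minus strand.

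**Figure D4:**
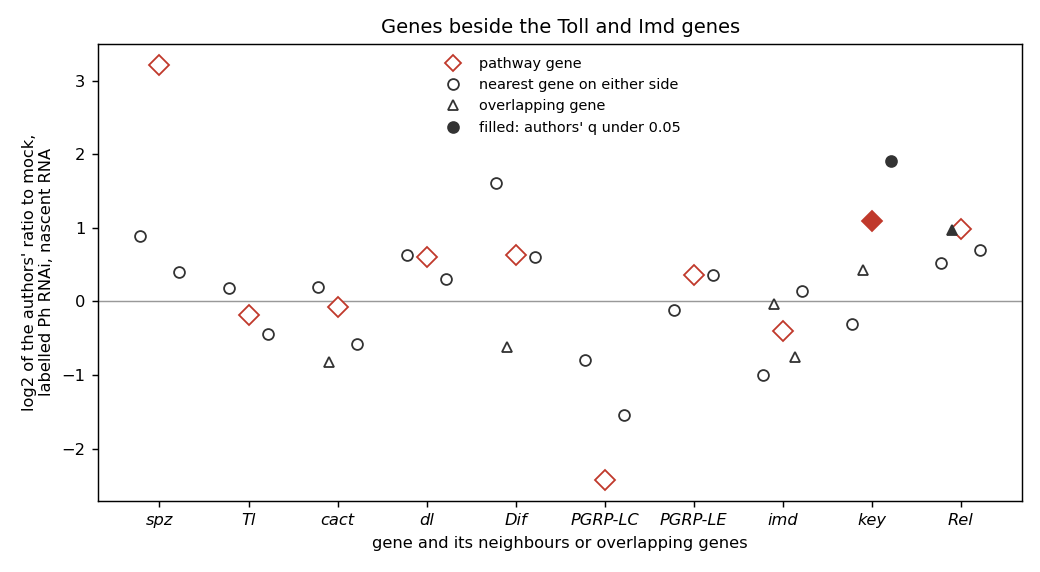
Log2 of the authors' ratio to mock in nascent RNA of the libraries labelled Ph RNAi, for the 10 genes (diamonds), the nearest gene of the table on each side (circles) and overlapping genes of the table (triangles); filled symbols had an authors' q under 0.05. The filled symbols are key, its neighbour Reg-5 and the gene Nmdmc that contains Rel.

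The wider pathways were followed through lists of other Toll, Imd and JNK genes, of which 61 were found in the table and 52 had a mean above 581 units. In nascent RNA after Ph RNAi 0 of the 61 rose and 3 fell at the authors' q, namely 18w, Traf4 and wgn, where 1.69% of all genes rose and 0.787% fell. At an unadjusted p under 0.05 there were 7 higher and 6 lower of the 61 per the authors' deposited table, beside 9.82% and 6.66% of all genes. After Sce RNAi 0 of the 61 passed at the authors' q, beside 0.118% of all genes, with 4 higher and 4 lower at an unadjusted p under 0.05 per the authors' deposited table, beside 4.62% and 5.29%. The 61 genes had a median log2 ratio of 0.07 under the Ph RNAi label and 0.05 under the Sce RNAi label, beside 0.02 and 0.01 over all genes. For total RNA 0 of the 61 passed at the authors' q after Ph RNAi and 0 after Sce RNAi, and 1 rose after Pc RNAi, beside 3.88%, 0.249% and 3.19% of all genes. Unadjusted p under 0.05 was reached in total RNA by 7, 7 and 8 of the 61 in that order per the authors' deposited table, beside 18.6%, 11.6% and 14.4% of all genes.

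Of 12 symbols of other Toll-family receptors and ligand paralogs 3 were found, and the others are not analysed here. These 3 receptor genes were all lower in nascent RNA under the Ph RNAi label. The receptor gene 18w had authors' means of 34232 in mock, 13840 in Ph RNAi and 30102 in Sce RNAi libraries, and fell to 0.404 times mock after Ph RNAi with a q of 0.043 per the authors' deposited table. Tollo had 315948, 131543 and 288981, with a Ph RNAi ratio of 0.416 and a q of 0.068 per the authors' deposited table. Toll-7 had 7254, 2742 and 2685, with ratios of 0.378 after Ph RNAi (q 0.08) and 0.37 after Sce RNAi (q 0.119) per the authors' deposited table. All 3 genes had p-values from 0.001 to 0.007 after Ph RNAi per the authors' deposited table. Of all genes 6.66% were lower there at an unadjusted p under 0.05, and 0.787% fell at the authors' q. Tl itself had a p of 0.186, and its difference from the 3 genes was not tested. In total RNA after Ph RNAi the authors' deposited table gave 0.606 for 18w, 0.401 for Tollo and 1.04 for Toll-7, with q of 0.37, 0.056 and 0.556, so that the list was not all lower there and none passed.

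Among adaptors and modifiers of the Toll route, 9 genes of the table, 1 fell in nascent RNA after Ph RNAi, where 0.787% of all genes fell. Traf4, a TRAF adaptor gene, had authors' means of 115942 in mock, 48534 in Ph RNAi and 78626 in Sce RNAi libraries, and fell to 0.419 times mock after Ph RNAi with a q of 0.012 per the authors' deposited table. Pli, which encodes Pellino, had a ratio of 1.5 with a q of 0.141, and Traf6 had 1.75 with a q of 0.274 per the authors' deposited table. Myd88, tub and pll, which encode the receptor-proximal adaptors and the kinase Pelle, had Ph RNAi ratios of 1.16, 0.975 and 1.26 with p from 0.547 to 0.909 per the authors' deposited table. These 3 genes, which act between Toll and Cactus, passed in no nascent comparison, where 2.48% of all genes did after Ph RNAi and 0.118% after Sce RNAi. After Sce RNAi the highest ratios in this list were those of cactin at 1.77 (q 0.394) and pll at 1.55 (q 0.654) per the authors' deposited table.

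In the extracellular part of the Toll route, 9 genes of recognition proteins, proteases and their inhibitors were in the table and 0 passed at the authors' q in any comparison. The share of all genes that passed ran from 0.118% to 3.88% over the comparisons. The protease gene gd had authors' means of 16887 in mock, 21499 in Ph RNAi and 19683 in Sce RNAi libraries, with a Ph RNAi ratio of 1.27 and a q of 0.139 per the authors' deposited table. The recognition gene GNBP2 had means of 1005, 243 and 884, with a q of 0.323 for the Ph RNAi ratio per the authors' deposited table. Spn27A, a serpin gene, had means of 2376, 1331 and 1705 with q of 0.217 and 0.558, and grass, a protease gene, had 707, 735 and 804 with q of 0.639 and 0.775 per the authors' deposited table.

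In the signalling machinery between Imd and Relish no gene but key passed in nascent RNA, where 2.48% of all genes did after Ph RNAi and 0.118% after Sce RNAi. The list of 12 other kinase, ubiquitin and cofactor genes had nascent log2 ratios from -0.41 to 0.41 after Ph RNAi, with 0 of 12 at the authors' q under 0.05. Its highest were the caspase gene Dredd at 1.35 times mock, from 11724 to 15805, and the kinase gene Tak1 at 1.25 times, from 10154 to 12741, with q of 0.197 and 0.151 per the authors' deposited table. Its lowest were BG4, the Fadd adaptor gene, at 0.691 (q 0.403) and ird5, the catalytic partner of the key product in the kinase complex, at 0.867 (q 0.439) per the authors' deposited table. The 2 subunit genes of that kinase complex thus lay on opposite sides of 1 after Ph RNAi.

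Of 12 recognition and negative regulator genes of the Imd route, 0 passed in nascent RNA at the authors' q, beside 2.48% of all genes after Ph RNAi and 0.118% after Sce RNAi. The ratio of dnr1, a ubiquitin ligase gene, was 0.645 after Sce RNAi, from an authors' mean of 24126 to 15554, with a q of 0.093 per the authors' deposited table. In total RNA pirk, a feedback inhibitor gene of the Imd route, rose 7.80-fold after Pc RNAi with a q of 0.009 per the authors' deposited table. Its total RNA ratios after Ph and Sce RNAi were 3.45 and 5.85 with q of 0.345 and 0.246 per the authors' deposited table. The nascent means of pirk were 235, 305 and 657 in mock, Ph RNAi and Sce RNAi libraries, all near or under 581 units. Means of total RNA were not used, so how much signal lies behind its total RNA ratios was not examined.

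Of 41 symbols of antimicrobial peptides and other effectors 4 were found in the table, and the others are not analysed here. The peptide gene AttD had authors' nascent means of 101 in mock, 39.3 in Ph RNAi and 13.7 in Sce RNAi libraries, all under 581 units. Duox, which encodes an oxidase, had 18208, 28829 and 21101 with a Ph RNAi ratio of 1.58 and a q of 0.308 per the authors' deposited table. Nos and CG42640, listed for prophenoloxidase PPO3, had Ph RNAi ratios of 0.894 and 0.658 with q of 0.59 and 0.366 per the authors' deposited table.

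The list of JNK genes held 12 genes of the table with a median log2 ratio of 0.32 after Ph RNAi, beside 0.02 over all genes. At the authors' q 1 of the 12 passed in nascent RNA after Ph RNAi, beside 2.48% of all genes. At an unadjusted p under 0.05 there were 3 higher and 2 lower per the authors' deposited table, beside 9.82% and 6.66%. A branch to JNK leaves the Imd route at Tak1, but the list also holds the ligand gene egr and the receptor gene wgn, which lie outside that branch. The receptor gene wgn fell to 0.509 times mock, from an authors' mean of 80441 to 40936, with a q of 0.031 per the authors' deposited table. Mmp1, a matrix protease gene and known JNK target, had means of 62527 in mock, 319451 in Ph RNAi and 120841 in Sce RNAi libraries. The phosphatase gene puc, also a JNK target, had 65402, 161778 and 148143. In the authors' deposited table the Ph RNAi ratios were 5.11 for Mmp1 (p 0.006, q 0.079) and 2.47 for puc (p 0.003, q 0.054), so neither passed. The ligand gene egr was at 0.223 times mock with a q of 0.16 per the authors' deposited table. In total RNA after Ph RNAi the authors' deposited table gave 1.16 for wgn, 1.92 for Mmp1, 0.979 for puc and 0.53 for egr, with q of 0.408, 0.264, 0.584 and 0.136. These 4 genes were the 2 highest and 2 lowest of the list in nascent RNA after Ph RNAi. Of the 4 genes wgn is the one that passed, in nascent RNA, and its total RNA ratio lay on the other side of 1.

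**Figure D5:**
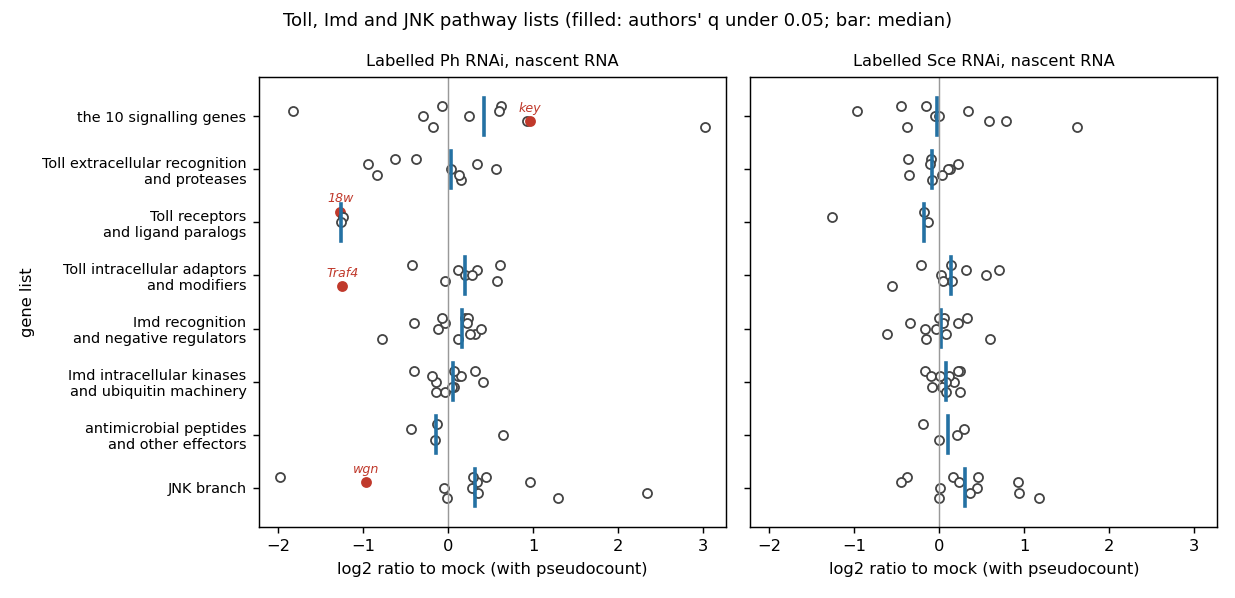
Nascent log2 ratio to mock (horizontal axis, pseudocount 581 units) of each gene of the table in 8 lists, in the libraries labelled Ph RNAi (left) and Sce RNAi (right); filled points had an authors' q under 0.05 and bars mark list medians. The filled points are key, 18w, Traf4 and wgn on the left, and there is none on the right.

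Blood cell markers were measured beside these genes because both routes are active in blood cells. Of 18 marker symbols 12 were found, and their summed authors' means were 5119599 in mock, 2147634 in Ph RNAi and 5454373 in Sce RNAi libraries. The sum rests on the 4 genes of highest signal, Cg25C, vkg, ush and Ppn, which were all lower under the Ph RNAi label. Of the 12 deposited ratios by the authors 8 were below 1 and 4 above 1 after Ph RNAi, and Ppn is the 1 that fell at the authors' q, beside 0.787% of all genes. The crystal cell gene lz and the gene peb went the other way, with nascent ratios of 12.2 (q 0.11) and 25.9 (q 0.14) per the authors' deposited table. In total RNA the authors' deposited table has peb rising 17.4-fold after Ph RNAi (q 0.013) and vkg rising 2.55-fold after Pc RNAi (q 0.038). Hml and eater, defining markers of larval blood cells, had nascent mock means of 271 and 227, under 581 units. None of the 12 was listed at 0. In total RNA after Pc RNAi the authors' deposited table gave Hml a ratio of 15.0 (q 0.073), which did not pass. Of the 12 ratios there 7 were above 1 and 5 below. In mock 8 of the 12 were above 581 units, among them srp at 73365, Pxn at 52069, crq at 15664 and nimC4 at 10568.

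The neuronal and glial markers also moved in both directions. Neuronal markers summed to 938004, 561383 and 669518 in mock, Ph RNAi and Sce RNAi libraries, of which CadN alone held 863517, 415033 and 583322. CadN fell after Ph RNAi to 0.481 times mock (q 0.036) and Nrg rose 6.73-fold (q 0.012) per the authors' deposited table. Of the 6 neuronal genes 4 were above mock and the median log2 ratio was 0.55, against the direction of the sum. Glial markers summed to 116198, 251624 and 133024, with 4 of 8 genes above mock and 4 below after Ph RNAi. The glial gene nrv2 rose 4.64-fold (q 0.012), while repo had a ratio of 14.3 (q 0.127) and loco 2.33 (q 0.065) per the authors' deposited table. Eaat1, wrapper, Gs2 and moody were below mock, at 0.529, 0.354, 0.666 and 0.89 times, with q from 0.182 to 0.525 per the authors' deposited table. In total RNA after Ph RNAi repo rose 54.0-fold (q 0.004), nrv2 2.10-fold (q 0.015) and Nrg 3.06-fold (q 0.028) per the authors' deposited table. The part of these shifts in the results for spz, PGRP-LC, key and the other genes was not tested, and in bulk samples fewer cells of a type cannot be told apart from less RNA per cell.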

How the data were processed

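Nascent RNA libraries of BG3 cells were grouped by their titles. SAMtools and bedtools are named, with no role, by the submitters' processing notes. The sources used here do not give the aligner, genome build, annotation, statistical test or strand handling. The deposited signal per gene was averaged by the authors over the replicates of each group, per the file headers, and had been brought to a common total, with column sums from 191793598 to 192278102, so a global rise or fall cannot be seen. The deposited ratio, p-value and q-value columns compare each RNAi group with mock, per the file headers, with 3 decimals. The table also has 4 columns with means of total RNA, which belong to no sample of the series and were not used.

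From these, log2((RNAi mean + 581)/(mock mean + 581)) was computed with Python 3.11.15 and pandas 2.3.3, where 581 is the 10th percentile of all nascent means. This pseudocount shrinks the ratios of genes with little signal. Total RNA ratios were log2-transformed as deposited. Plain folds are quotients of the authors' means. No test across libraries could be run, because the table holds means, so the authors' q was used as the design provided. The functions were tested on simulated data. All 10 members lay above 581. The Ensembl release 115 annotation (BDGP6) matched 7517 of 7624 symbols. Named genes were drawn from all members, the targeted genes, list genes with q under 0.05, the 2 highest and 2 lowest of each list, and the 3 genes nearest to each member that passed in nascent RNA. Neighbouring and overlapping genes, Myd88, tub, AttD and marker examples fall outside that rule and were picked with their values in view. Members and lists were chosen with earlier results of these data known.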

Additional observations from a re-analysis of the deposited data

How the results depend on the processing

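The call of key after Ph RNAi in nascent RNA and of spz after Pc RNAi in total RNA held at a q threshold of 0.10 and under Benjamini-Hochberg adjustment of the deposited p, where their p listed at 0, if read as 0.0005 (a reading chosen after seeing the data), gave 0.0459 and 0.0305. The call of Tl after Ph RNAi in total RNA did not hold under that adjustment, which gave 0.058, so that 0 of the 10 genes passed with p at 0 read either way; the adjustment also passed 209 genes in place of 296. In Sce RNAi 0 of the 10 passed in nascent and in total RNA under each of these settings. The median nascent log2 ratio of the 10 genes kept its sign under every pseudocount and scaling tried, from 0.27 to 0.48 after Ph RNAi, from -0.05 to -0.01 after Sce RNAi and from 0.12 to 0.24 for Ph RNAi against Sce RNAi. Of 120 single values 115 moved by less than 1.5-fold and 0 changed sign; the other 5 were those of spz and PGRP-LC with a larger or no pseudocount, for which PGRP-LC after Ph RNAi ran from -2.42 to -0.62. Leaving out single libraries was not possible because the table holds group means. No paired analysis was possible because the columns carry no replicate numbers. Depth per library is unknown, so the precision of low genes such as PGRP-LE, imd and PGRP-LC could not be set.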
